A study of Mus musculus with 35 samples.

Results

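The contractile cytoskeleton genes of fibroblasts described here were Acta2, Tagln, Cnn1, Myl9, Tpm1, Tpm2, Actn1 and Cald1, 8 genes chosen by name out of 21631 protein-coding genes of the RefSeq table for GRCm38.p6, the assembly that mm10 carries. Every H3K27ac and KLF4 peak over each gene and within 50 kb to either side was collected from 22 deposited peak lists, 1 per library. H3K27ac, acetylation of lysine 27 of histone H3, marks active promoters and enhancers, and KLF4 is a zinc finger transcription factor and 1 of the 4 factors used to turn fibroblasts into pluripotent cells. These genes gave 137 of the 106528 H3K27ac regions and 39 of the 33428 KLF4 regions of the series.

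The libraries followed mouse embryonic fibroblasts (MEF) through reprogramming, with established embryonic stem cells (ESC) as the end point. All cells were of the strain C57BL/6 x 129. MEF carried OKSM, the polycistronic cassette of Oct4, Klf4, Sox2 and Myc, in the Col1a1 locus and the M2rtTA transactivator in ROSA26, so that doxycycline turns the 4 factors on. Uninduced MEF, grown in MEF medium without doxycycline and not sorted, gave 2 H3K27ac libraries. The same cells in ESC medium with 1 ug/ml doxycycline and 50 ug/ml ascorbic acid gave 3 H3K27ac and 2 KLF4 libraries at day 3, 3 and 2 at day 6, and 2 and 2 at day 9. Day 3 cells were unsorted, whereas day 6 and day 9 cells were sorted for SSEA1, a surface antigen of cells moving towards pluripotency, so the later stages hold a selected part of the culture. ESC were the line V6.5, for which the genotype field names no cassette, in ESC medium with serum and LIF (2 H3K27ac and 2 KLF4 libraries) or with 2i added, 1 uM MEK inhibitor and 3 uM GSK3 inhibitor (2 KLF4 libraries). The ESC were grown on irradiated feeder cells, which are commonly fibroblasts, and the protocol does not say whether feeders were removed. The design text calls the replicates biological but no label ties them to separate cultures, so p-values measure the spread between these libraries, which may be technical. KLF4 libraries of MEF were not among them.

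H3K27ac lists held 17493 to 88347 peaks covering 9.21 to 83.5 Mb, and KLF4 lists 21129 to 34640 peaks covering 4.45 to 15.2 Mb. The H3K27ac lists of day 6 were the smallest, with 9.21 to 19.9 Mb against 82.8 and 83.5 Mb in MEF, and read depth is not given in the sources used here. A cover in kb therefore moves with the size of its list. Each test below was made on cover per covered Mb of the library. Values in kb describe the lists as deposited, and an order or overlap is given with its scale. For the labelled cell types, all 8 fibroblast markers (Col1a2, Col3a1, Thy1, Twist2, Prrx1, Pdgfrb, S100a4 and Fbn1) had an H3K27ac peak over the gene or within 2.5 kb in both MEF libraries, summing to 139 and 140 kb. In ESC 3 of 8 had one in each library and the sum was 1.48 and 2.11 kb, with Col1a2, Col3a1, Thy1 and S100a4 at 0 in both. All 8 pluripotency markers had one in both ESC libraries, and 2 of 8 in MEF. All 5 smooth muscle markers had one in both MEF libraries, summing to 41.7 and 43.1 kb. At day 3, 2 to 3 of 5 had one, and 4 of 5, all but Myocd, had one in ESC, summing to 9.06 and 9.14 kb.

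Acta2 (smooth muscle alpha actin), Myl9 (a regulatory light chain of myosin), Tpm1 and Tpm2 (tropomyosins, which lie along the actin filament), Cnn1 (calponin) and Cald1 (caldesmon, both filament-binding regulators of contraction), Tagln (transgelin, an actin-binding protein) and Actn1 (alpha-actinin, a crosslinker of filaments in stress fibres and focal adhesions) make up the stress fibres with which fibroblasts and smooth muscle cells pull on their surroundings. Many genes of this kind are switched on by serum response factor (SRF), which binds the CArG box, together with the MRTF coactivators that leave the cytoplasm when free actin monomers are used up. KLF4 is known in smooth muscle as a factor that acts against SRF at such promoters.

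Promoters in the RefSeq table run from 250 bases before to 50 after the start and were available for 7 of the 8 genes, with 2 for Cald1, 8 promoters in all. A CArG box without mismatch stood in 1 of these 8, that of Myl9, and in 1.63% of the 32851 promoters of the table. With at most 1 mismatch, an allowance chosen after the strict search was seen, it stood in 4 of 8 (Acta2, Myl9, Tpm1 and the upstream promoter of Cald1) and in 21.1% of all promoters. Both strands were searched. Acta2 and Myl9 are shown because the start of Acta2 lost H3K27ac in ESC while that of Myl9 had it there, and both carry the 1-mismatch box at 2 places, in capitals (Acta2 on chr19:34255324-34255623, minus strand; Myl9 on chr2:156775214-156775513, plus strand; GRCm38.p6, RefSeq).
Acta2: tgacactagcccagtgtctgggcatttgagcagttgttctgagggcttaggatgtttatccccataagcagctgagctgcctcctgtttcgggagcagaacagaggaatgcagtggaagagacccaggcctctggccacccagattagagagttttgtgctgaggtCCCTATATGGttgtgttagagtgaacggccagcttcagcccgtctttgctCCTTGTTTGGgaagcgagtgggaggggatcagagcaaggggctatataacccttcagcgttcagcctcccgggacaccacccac
Myl9: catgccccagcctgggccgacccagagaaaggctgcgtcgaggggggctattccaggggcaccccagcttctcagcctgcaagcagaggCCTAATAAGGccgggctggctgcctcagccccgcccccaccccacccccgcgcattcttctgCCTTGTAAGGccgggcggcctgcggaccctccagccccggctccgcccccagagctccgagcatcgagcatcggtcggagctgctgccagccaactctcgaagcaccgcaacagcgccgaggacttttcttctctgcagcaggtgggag

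With positions counted from the start site and negative before it, the matches of Acta2 began at -84 and -34 and those of Myl9 at -161 and -99, the first of Myl9 being the one without mismatch. The motifs searched for the KLF family were GGGNGTG, found in 4 of the 8 promoters and 29.2% of all, and CACCC, found in 6 of 8 and 57.5% of all. The pair shares bases where GGGNGTG reads GGGGGTG, which holds CACCC on its other strand. Cnn1 and Actn1 are shown because no KLF4 peak overlapped the promoter of Cnn1 in any of the 10 libraries, while that of Actn1 had one in all 10. Matches to either motif are in capitals (Cnn1 on chr9:22099003-22099302, plus strand; Actn1 on chr12:80260314-80260613, minus strand; GRCm38.p6, RefSeq).
Cnn1: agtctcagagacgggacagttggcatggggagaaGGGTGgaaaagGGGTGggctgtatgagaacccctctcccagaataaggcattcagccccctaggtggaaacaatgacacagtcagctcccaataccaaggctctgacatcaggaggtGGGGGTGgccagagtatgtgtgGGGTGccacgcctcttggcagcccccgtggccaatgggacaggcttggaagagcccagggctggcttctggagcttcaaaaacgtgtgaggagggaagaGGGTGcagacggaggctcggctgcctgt
Actn1: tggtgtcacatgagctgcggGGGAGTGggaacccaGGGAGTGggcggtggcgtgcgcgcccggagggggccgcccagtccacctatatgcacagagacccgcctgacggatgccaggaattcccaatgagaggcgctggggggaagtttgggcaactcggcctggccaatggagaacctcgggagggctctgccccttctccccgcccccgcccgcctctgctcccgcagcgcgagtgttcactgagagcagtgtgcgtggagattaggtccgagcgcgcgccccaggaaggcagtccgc

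Cnn1, without a KLF4 peak, held CACCC 5 times and GGGNGTG once, and Actn1 held GGGNGTG 2 times and CACCC 0 times. TGANTCA, the AP-1 motif, stood in 1 of the 8 promoters (Cald1, the downstream one; 7.81% of all), and GGAATG, the TEAD motif, in 3 (Acta2, Tpm1 and the upstream one of Cald1; 14.7% of all).

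The actin gene Acta2 (chr19:34240336-34255585) went from broad H3K27ac in MEF to almost none in ESC. Its H3K27ac peaks covered 32.3 and 33.1 kb in MEF, 16.5, 14.4 and 12 kb at day 3, 1.95, 1.11 and 4.65 kb at day 6, 6.54 and 6.86 kb at day 9, and 0.617 and 0.389 kb in ESC. In kb both MEF libraries lay above all others. Per covered Mb day 3 lay above MEF, at 430, 471 and 503 bp against 390 and 396 bp, and on both scales both ESC libraries lay below every other library. Per covered Mb the cover was 393 ± 4.01 bp in MEF (SD, n = 2) and 7.78 ± 2.17 bp in ESC (SD, n = 2), a log2 difference of -4.51 ± 0.24 (SE; limma, adjusted p = 2.32e-07), and it was the widest of the 8 differences. Of the 13 regions it had in MEF, 6 were still present on day 3, 3 on day 6, 4 on day 9 and 1 in ESC, the last at the neighbour Stambpl1. The region over the start (chr19:34251347-34257192, 5846 bp) held peaks in all libraries from MEF to day 9 and in none of ESC. Over the 300 bases at the start itself, 2 of 3 day 6 libraries had one. The region was the strongest of the window in MEF, at a mean rank of 1.19% from the top of the list. Its mean fold enrichment there was 39.9 by the authors' peak caller.

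**Figure D1:**
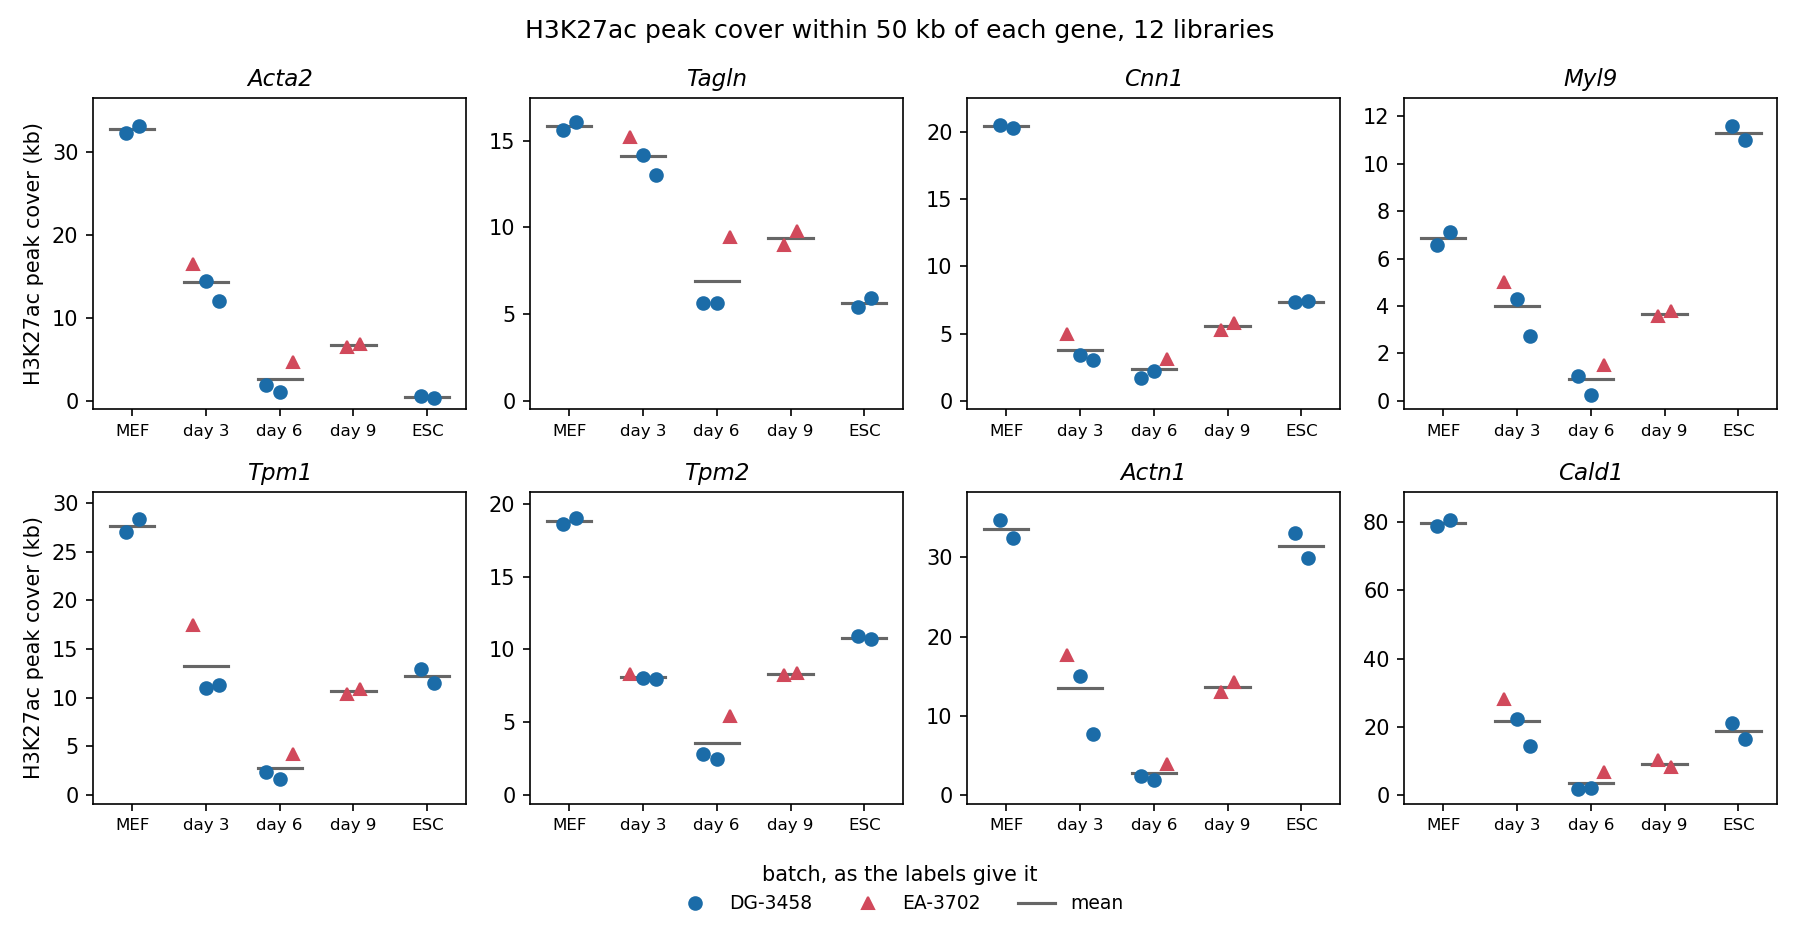
H3K27ac peak cover in kb (vertical axis, starting at 0, own scale per gene) over each gene and within 50 kb, by stage (horizontal axis). Each point is 1 library, its shape and colour the batch, and the line is the stage mean; both ESC points of Acta2 lie under 1 kb, and those of Myl9 above its MEF points.

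Calponin, Cnn1 (chr9:22099221-22109221), was the 1 gene of the 8 with no H3K27ac peak within 2.5 kb at day 3. The region over its start (chr9:22098074-22101228, 3155 bp) carried peaks in each MEF library and in 0 of the 10 later ones. Over the gene and 2.5 kb around it the peaks covered 3.29 and 3.13 kb in MEF and 0 kb in each library from day 3 to ESC. In the 50 kb window the cover was 20.5 and 20.3 kb in MEF, 4.93, 3.39 and 3.04 kb at day 3, 1.71, 2.23 and 3.11 kb at day 6, 5.3 and 5.76 kb at day 9, and 7.33 and 7.43 kb in ESC. Of its 5 regions shared by MEF and ESC, each lay within 2.5 kb of another gene (Ecsit, Zfp653, Elof1, Acp5 or Pigyl), and the strongest MEF region of the window, chr9:22070006-22072145, lay at Zfp653 and Ecsit and was in all 12 libraries. Cnn1 was lower per covered Mb at day 3 than in MEF, by -0.95 ± 0.16 on the log2 scale (SE; limma, adjusted p = 0.00127), and in ESC, by -1.03 ± 0.18 (adjusted p = 0.000813), both turning to 0.02 and 0.31, with adjusted p of 1 and 0.293, when peaks were counted in place of their length.

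Transgelin, Tagln (chr9:45929628-45936058), sits among 4 other coding genes, and each region of its window lay within 2.5 kb of 1 or more of them. The 50 kb window was covered over 15.6 and 16.1 kb in MEF, 15.2, 14.2 and 13 kb at day 3, 5.64, 5.63 and 9.47 kb at day 6, 8.96 and 9.78 kb at day 9, and 5.39 and 5.92 kb in ESC. Over the gene and 2.5 kb around it, the cover was 4.61 and 4.92 kb in MEF, 3.31, 3.83 and 3.79 kb at day 3, 0, 0 and 0.54 kb at day 6, 0.501 and 0.632 kb at day 9, and 0.576 and 0.575 kb in ESC. In kb the mark within 2.5 kb was thus long in MEF and at day 3 and short or without a peak in all libraries after that. Per covered Mb the 50 kb window had its highest mean at day 6, 541 ± 68.5 bp (SD, n = 3), against 190 ± 2.95 bp in MEF (SD, n = 2). The region there, chr9:45932565-45937204, also reaches within 2.5 kb of Pcsk7 and Sidt2. Of 5 MEF regions in the window, day 3 libraries shared 5, day 6 libraries 4, day 9 libraries 5 and ESC libraries 4. Tagln fell in ESC by 1.03 ± 0.16 on the log2 scale against MEF (SE; limma, adjusted p = 0.000357), and within 2.5 kb of the gene by 1.83 (adjusted p = 0.0266). The strongest MEF region of its window, chr9:45905058-45908112 (mean rank 0.466%), lies at Rnf214 and Pcsk7 and was in all 12 libraries.

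The light chain gene Myl9 (chr2:156775408-156781657) had its longest cover in ESC, in kb and per covered Mb. Its cover was 6.58 and 7.12 kb in MEF, 5, 4.29 and 2.73 kb at day 3, 1.04, 0.247 and 1.53 kb at day 6, 3.56 and 3.79 kb at day 9, and 11.6 and 11 kb in ESC. Both ESC libraries lay above all others on both scales, while day 6, the lowest in kb, overlapped MEF and day 9 per covered Mb. The log2 difference of ESC from MEF was 1.01 ± 0.40 (SE; limma, adjusted p = 0.0523) and was past the threshold without the day 6 library DG-3458 replicate 1 (adjusted p = 0.0253) or replicate 2 (adjusted p = 0.000238). It was also past it with a pseudocount of 100 (adjusted p = 0.0119), with a peak required in at least 4 libraries (adjusted p = 0.0425) and with a q-value of at most 0.01 (adjusted p = 0.00627). Replicate numbers here follow the sample titles. Inside the 2 day 6 lists of batch DG-3458, the peak names carry them the other way round. Of its 14 regions, 9 were ESC-only, that is, present in ESC and in no MEF library, and 1 was MEF-only. The region over the start, chr2:156774151-156776367, was present in MEF, at day 3 and in ESC, was in 0 of 3 libraries at day 6 and in 1 of 2 at day 9, and within 2.5 kb of the gene the log2 difference between ESC and MEF was -0.08 (adjusted p = 0.847).

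The tropomyosin genes had H3K27ac over their starts in both MEF and both ESC libraries, and the cover of their windows per covered Mb was lower in ESC than in MEF. For Tpm1 (chr9:67022590-67049672) the cover was 27 and 28.3 kb in MEF, 17.5, 11 and 11.3 kb at day 3, 2.37, 1.63 and 4.15 kb at day 6, 10.4 and 10.9 kb at day 9, and 12.9 and 11.5 kb in ESC. Per covered Mb the mean was 333 bp in MEF, 430 bp at day 3, 204 bp at day 6, 216 bp at day 9 and 190 bp in ESC, so that day 3 stood highest. Its start region, chr9:67040028-67050814, was 10787 bp long and present at all 5 stages. Over the 300 bases at the start itself, 1 of 3 day 6 libraries had H3K27ac. Tpm1 fell in ESC by 0.78 ± 0.14 on the log2 scale (SE; limma, adjusted p = 0.000959), but by 0.14 within 2.5 kb of the gene, where it was not called (adjusted p = 0.598). For Tpm2 (chr4:43513726-43523583) the cover was 18.6 and 19 kb in MEF, 8.32, 8 and 7.95 kb at day 3, 2.81, 2.47 and 5.4 kb at day 6, 8.26 and 8.36 kb at day 9, and 10.9 and 10.7 kb in ESC. Per covered Mb its mean was 226 bp in MEF, 271 bp at day 3, 269 bp at day 6, 169 bp at day 9 and 168 bp in ESC. The 300 bases at its start had H3K27ac in both MEF and both ESC libraries and in 0 of the 8 libraries between, although a peak elsewhere in the same region (chr4:43521405-43525455) remained at day 3 in 3 of 3. The strongest region of the window, chr4:43556167-43565265, lies at Tln1 (talin), Creb3 and Gba2, at a mean rank of 2.26%, and was in all 12 libraries. Tpm2 fell in ESC by 0.41 ± 0.15 (SE; limma, adjusted p = 0.0405), a call that was lost in 8 of 12 leave-one-out fits, those without either MEF, either ESC or either day 9 library, day 3 library DG-3458 replicate 1 or day 6 library DG-3458 replicate 1 (adjusted p of 0.0514 to 0.144). The call was also lost with a pseudocount of 100 and with the q-value limit, and the difference was -1.37 within 2.5 kb (adjusted p = 0.0504) and -1.63 within 10 kb (adjusted p = 0.0224).

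Alpha-actinin, Actn1 (chr12:80167542-80260420), had long cover in both MEF and ESC, through partly different regions. Its cover was 34.8 and 32.5 kb in MEF, 17.7, 15 and 7.67 kb at day 3, 2.34, 1.84 and 3.93 kb at day 6, 13 and 14.3 kb at day 9, and 33.1 and 29.9 kb in ESC, so that MEF and ESC overlapped in kb. Per covered Mb ESC lay above MEF, at 499 and 479 bp against 420 and 389 bp. The log2 difference of ESC from MEF was 0.27 ± 0.17 (SE; limma, adjusted p = 0.201) and -0.10 without scaling (adjusted p = 0.853). It was called higher in ESC when each list was limited to its 17493 top peaks (1.02, adjusted p = 0.00109), when peaks were counted (0.70, adjusted p = 0.0401), and without the day 3 library DG-3458 replicate 2 (adjusted p = 0.0298). Of its 26 regions, 10 were shared by MEF and ESC, 9 were ESC-only and 6 MEF-only. Of 13 MEF regions in no day 6 library, 6 were present in ESC, and the matching share over the series is not given. The start region, chr12:80256191-80261566, was present at all 5 stages and was the strongest in MEF (mean rank 1.12%). Over the 300 bases at the start itself, 1 of 3 day 6 libraries had H3K27ac.

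Caldesmon, Cald1 (chr6:34598495-34775469), carried the longest MEF cover of the 8 windows, which is also the longest window at 277 kb. The cover was 79 and 80.7 kb in MEF, 28.1, 22.4 and 14.4 kb at day 3, 1.79, 1.91 and 6.64 kb at day 6, 10.2 and 8.13 kb at day 9, and 21 and 16.4 kb in ESC. MEF lay above each later library and day 3 above day 6, in kb and per covered Mb. Of 41 regions 30 were MEF-only, 23 of them inside the gene or within 2.5 kb of it, and of 35 MEF regions 29 were in no day 6 library. None of those 29 was present again in ESC. The matching shares over the series are not given. Of all MEF regions of the series, 18.1% were present at day 6 and 26.4% in ESC. The regions at both of its starts, chr6:34596344-34603982 and chr6:34706955-34711414, were present at all 5 stages. Over the 300 bases at the start itself, 1 of 3 day 6 libraries had H3K27ac upstream and 3 of 3 downstream. The strongest MEF region of the window, chr6:34779339-34782387, lies at the neighbour Agbl3, at a mean rank of 0.351%. Cald1 fell in ESC by 1.70 ± 0.26 on the log2 scale (SE; limma, adjusted p = 0.000371).

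**Figure D2:**
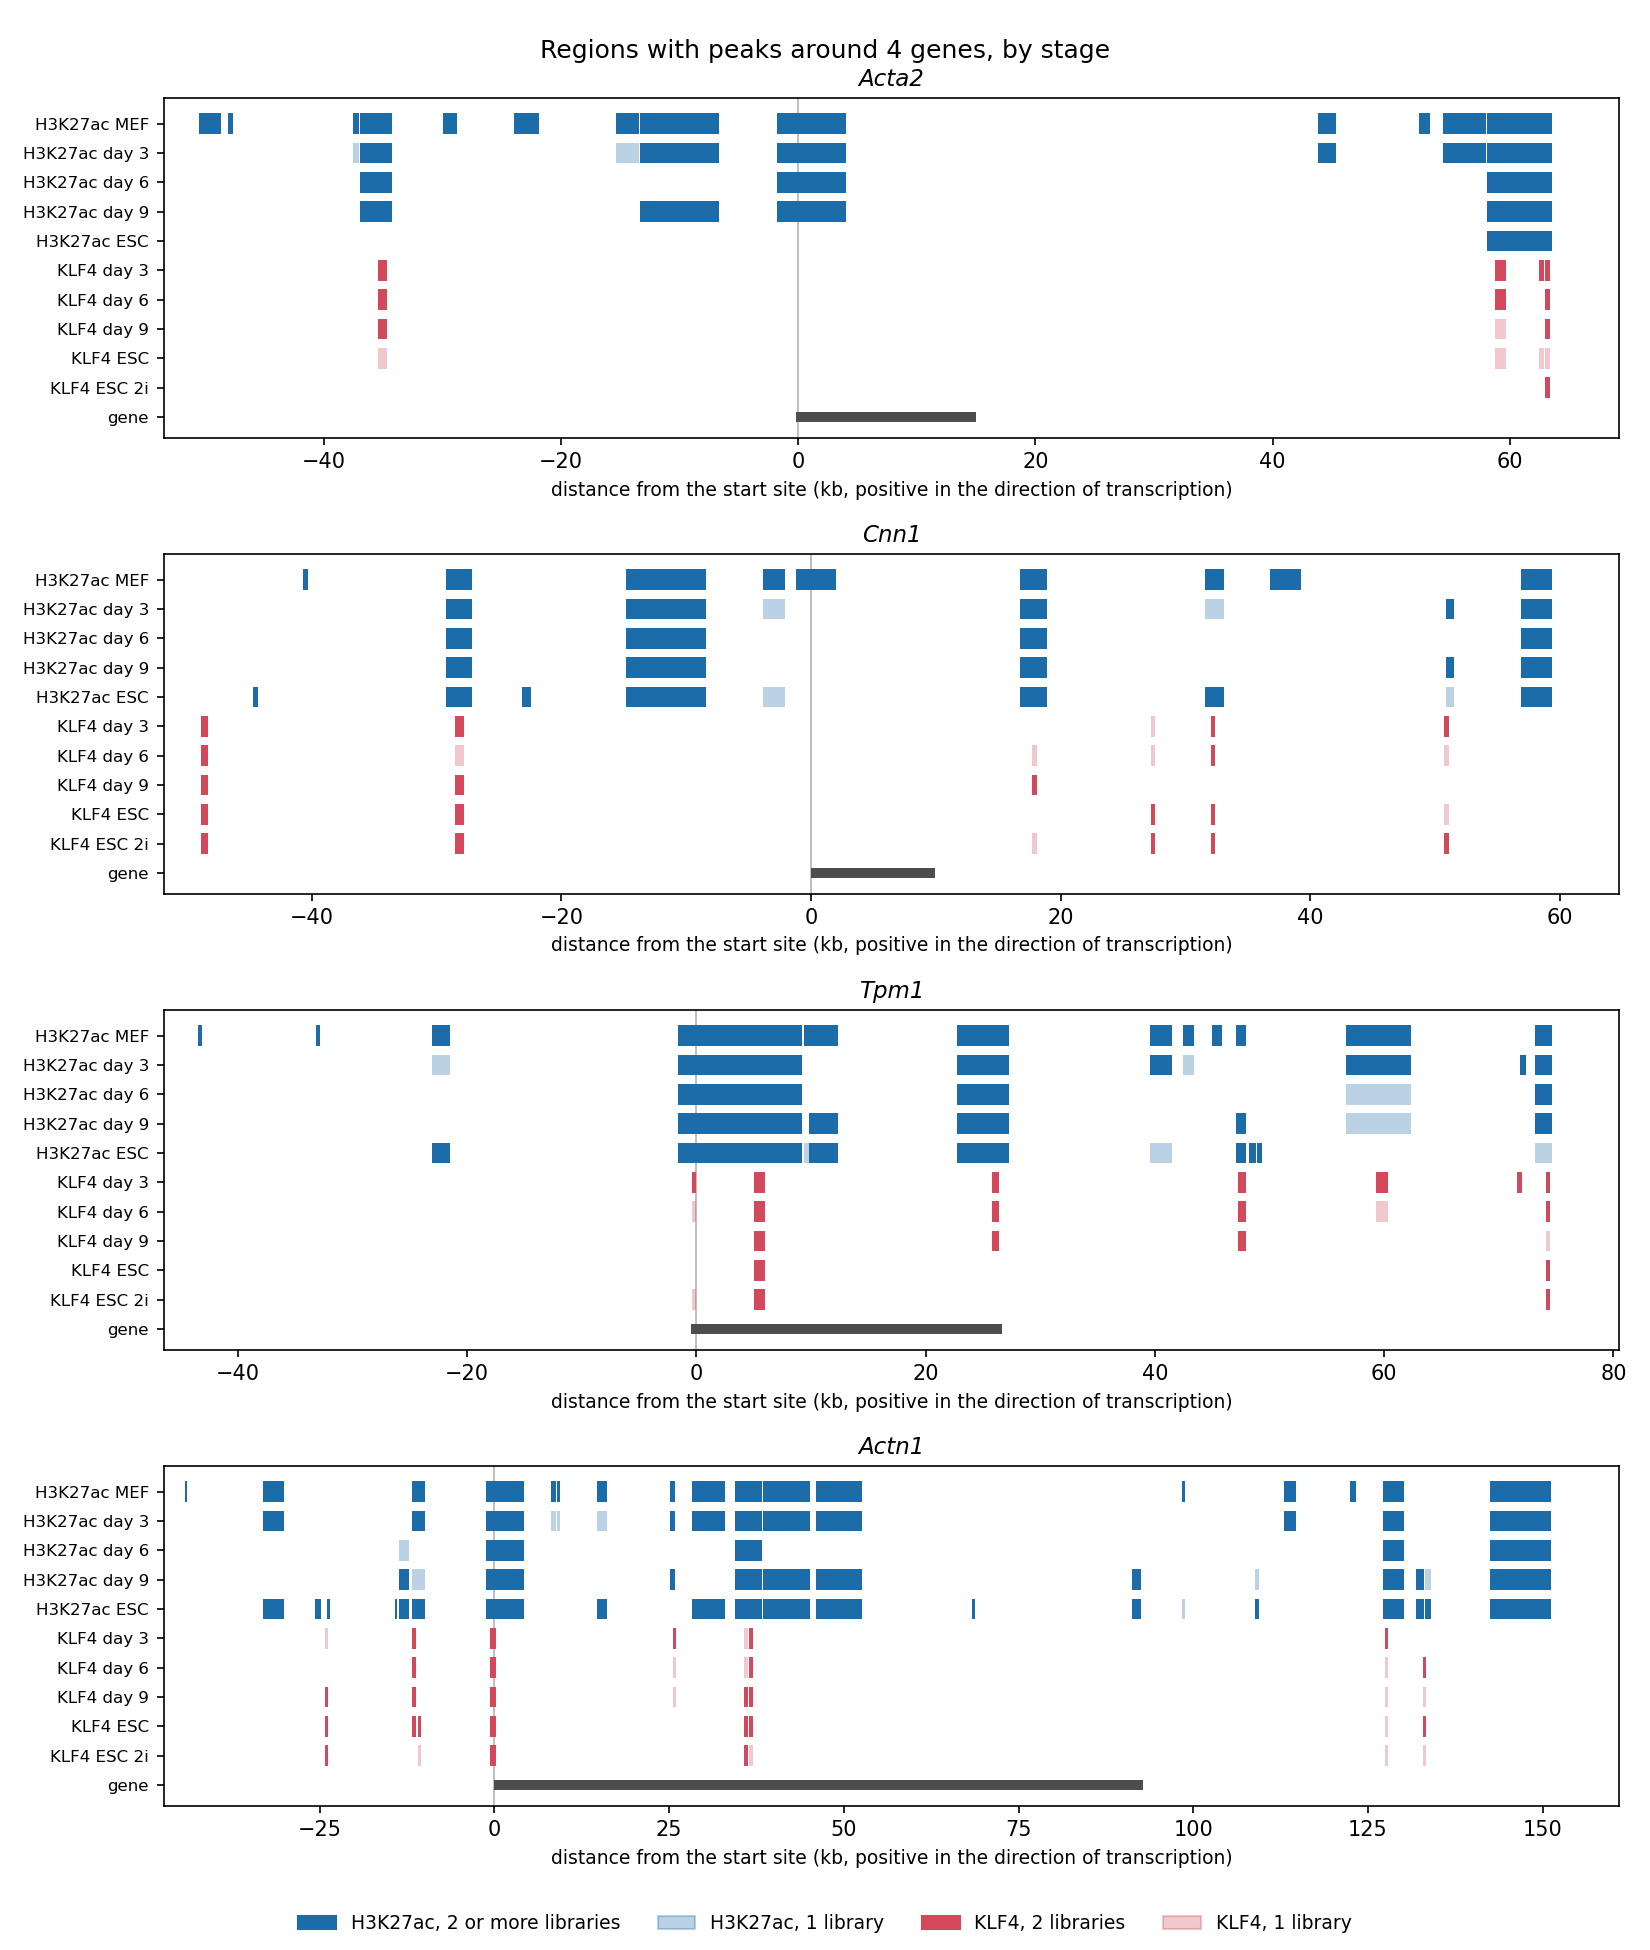
Regions with H3K27ac peaks (blue) and KLF4 peaks (red) around 4 of the genes, by distance from the start site in kb (horizontal axis) and stage (rows); strong colour marks peaks in 2 or more libraries, pale colour in 1, and regions under 0.35 kb are drawn 0.35 kb wide. The region over the start of Cnn1 has H3K27ac in MEF only, that of Acta2 from MEF to day 9, and those of Tpm1 and Actn1 at all 5 stages. At day 6, 1 of 3 libraries had a peak over the start itself of Tpm1, and likewise of Actn1.

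Over the whole table, 6 of the 8 genes were called lower in ESC than in MEF (Acta2, Tagln, Cnn1, Tpm1, Tpm2 and Cald1) against 26.1% of all 19778 genes tested, and 0 of 8 higher against 37.2%. In other settings Myl9 (above) was called higher, and so was Actn1 with equal numbers of top peaks or without the day 3 library DG-3458 replicate 2. The test was limma on log2 of cover per covered Mb plus 10, with Benjamini-Hochberg adjustment over all genes and a threshold of 0.05, and all 8 genes passed the filter of a peak in at least 2 libraries. At unadjusted p under 0.05, 7 of 8 passed in either direction, as did 13193 of all 19778 genes tested. The median log2 difference was -0.90 over the 8 genes and 0.19 over all genes. All 4 libraries of this comparison belong to batch DG-3458. When peaks were counted in place of covered length, 3 of 8 were called lower (Acta2, Tagln and Tpm1; 15.4% of all genes) and 2 higher (Myl9 at 1.35, adjusted p = 0.00856, and Actn1 at 0.70; 32.8% of all genes). The differences of Cnn1 and Tpm2 then stood at 0.31 and 0.11. The fibroblast markers moved with it (139 and 140 kb in MEF, 1.48 and 2.11 kb in ESC), and their part in the result was not tested. Fewer cells with the mark and less mark per cell cannot be told apart in bulk libraries.

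Day 3 against MEF depended on the scaling. Per covered Mb, 1 gene was called lower (Cnn1; 18.4% of all genes) and 2 higher (Tagln by 1.25 ± 0.14, adjusted p = 0.000114, and Tpm1 by 0.35 ± 0.13, adjusted p = 0.0466, SE, limma; 29.1% of all genes), while without scaling 6 were called lower, near the 65.1% of all genes so called. Tagln and Tpm1 then stood at -0.16 and -1.06, and the median over all genes moved from 0.07 to -0.99. The day 3 lists covered 23.8 to 38.4 Mb against 82.8 and 83.5 Mb in MEF. So in kb each of the 8 genes had less cover in every day 3 library than in either MEF library, whereas relative to the list Cnn1 was lower, Tagln higher in the 50 kb window but not called within 2.5 kb (0.95, adjusted p = 0.181), and the difference of Acta2 was 0.24 ± 0.22 (SE; adjusted p = 0.401), of Actn1 0.05 ± 0.16 (adjusted p = 0.888) and of Cald1 -0.47 ± 0.24 (adjusted p = 0.137). The call of Tpm1 was lost in 8 of 12 leave-one-out fits, those without either MEF, either ESC, either day 9 library, the day 3 library EA-3702 or DG-3458 replicate 2 (adjusted p of 0.0643 to 0.194), and within batch DG-3458 (adjusted p = 0.157), and there Cald1 was called lower (-0.52, adjusted p = 0.0253), as it was without the day 6 library EA-3702 (-0.47, adjusted p = 0.0204). Myl9, at 0.58 in the 50 kb window (adjusted p = 0.235), was called higher within 2.5 kb (0.73, adjusted p = 0.0357) and 10 kb (0.73, adjusted p = 0.0276), by number of peaks (0.95, adjusted p = 0.0343) and without the day 6 library DG-3458 replicate 2 (0.58, adjusted p = 0.00488). Tpm2 was called higher within batch DG-3458 (0.37, adjusted p = 0.0349) and without the day 3 library EA-3702 (0.37, adjusted p = 0.0198). The F test over the 5 stages called 8 of 8 genes, but it also called 90.8% of all genes.

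**Figure D3:**
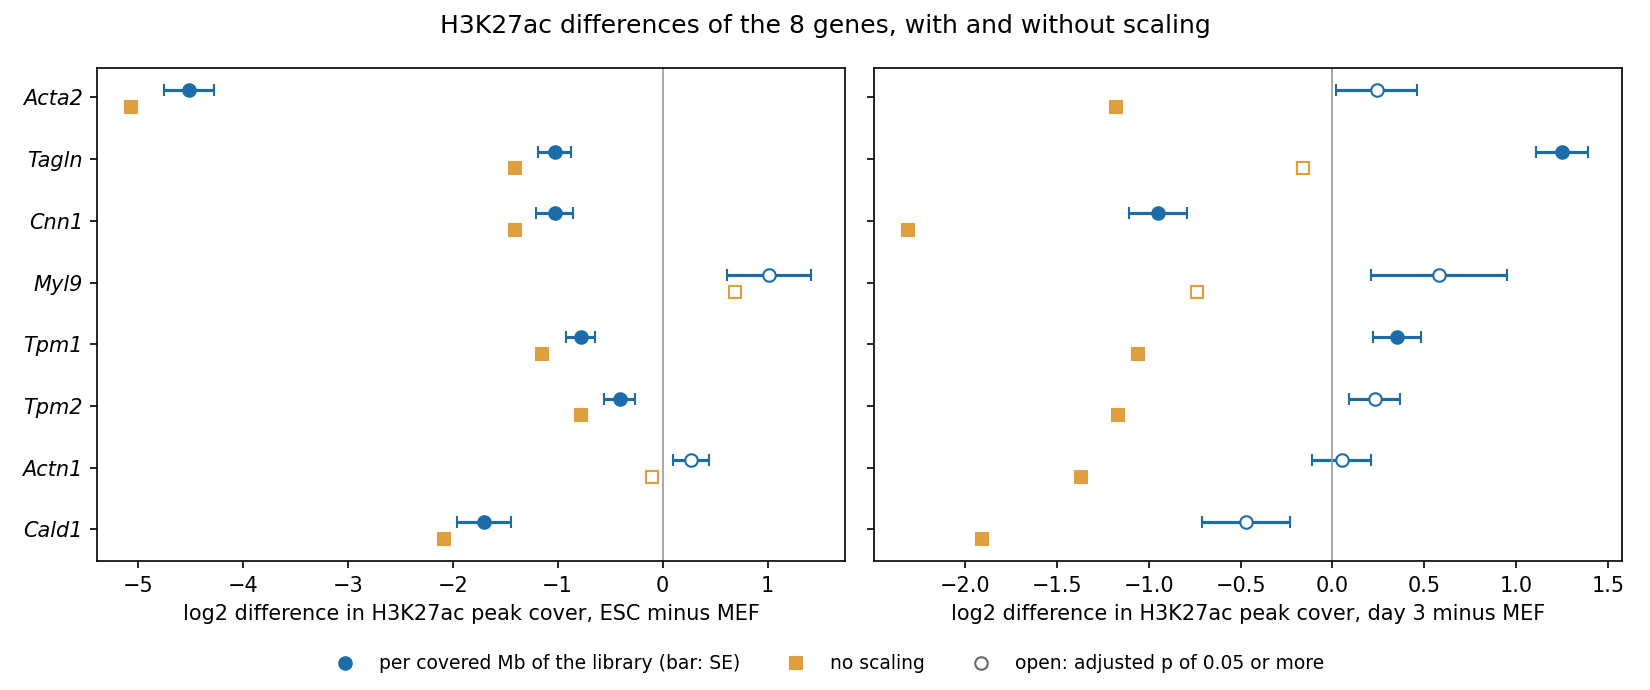
Log2 difference in H3K27ac peak cover of each gene (vertical axis) for ESC minus MEF (left) and day 3 minus MEF (right), horizontal axes with 0 marked. Circles with SE bars are per covered Mb, squares without scaling, filled where the adjusted p is under 0.05; at day 3 the squares of 6 genes lie at or below -1.06 with filled symbols while their circles lie on both sides of 0.

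MEF-only regions outnumbered ESC-only ones in the windows, as they did over the whole series. Of the 137 H3K27ac regions, 61 were MEF-only (44.5%; 39.4% of all regions), 29 ESC-only (21.2%; 29.6%) and 38 shared by MEF and ESC (27.7%; 14.9%). MEF-only regions numbered 110 and 99 without MEF replicate 1 or 2, and ESC-only ones 43 and 46 without ESC replicate 1 or 2. Of the 104 regions present in MEF, 50 were present at day 3 (48.1%; 31.2% of all MEF regions), 25 at day 6 (24%; 18.1%), 35 at day 9 (33.7%; 27.1%) and 38 in ESC (36.5%; 26.4%). At each later stage the share still present was thus above that of all MEF regions, and the genes ranged widely, from 1 of 13 in ESC for Acta2 and 5 of 35 for Cald1 to 10 of 17 for Actn1 and 4 of 5 for Tagln. No test was made of these shares. Regions shared by MEF and ESC had a median length of 3352 bp, MEF-only regions 1166 bp and ESC-only regions 564 bp. Of the 61 MEF-only regions 17 were present on day 3, 3 on day 6 and 6 on day 9, and of the 29 ESC-only regions 0 were present at day 3 or day 6 and 4 at day 9. The matching shares over the whole series are not given, so these counts describe the windows of the 8 genes alone. Of 20 regions present at all 5 stages, 13 lay within 2.5 kb of a neighbouring gene, and for this too no share over the series is given. Among the 8 promoters, 2 (Acta2 and Cnn1) had H3K27ac in both MEF and neither ESC library (25%; 6.79% of all 21045 promoters of coding genes), and 1 (the downstream promoter of Cald1) had it in all 12 libraries (12.5%; 22.4%).

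**Figure D4:**
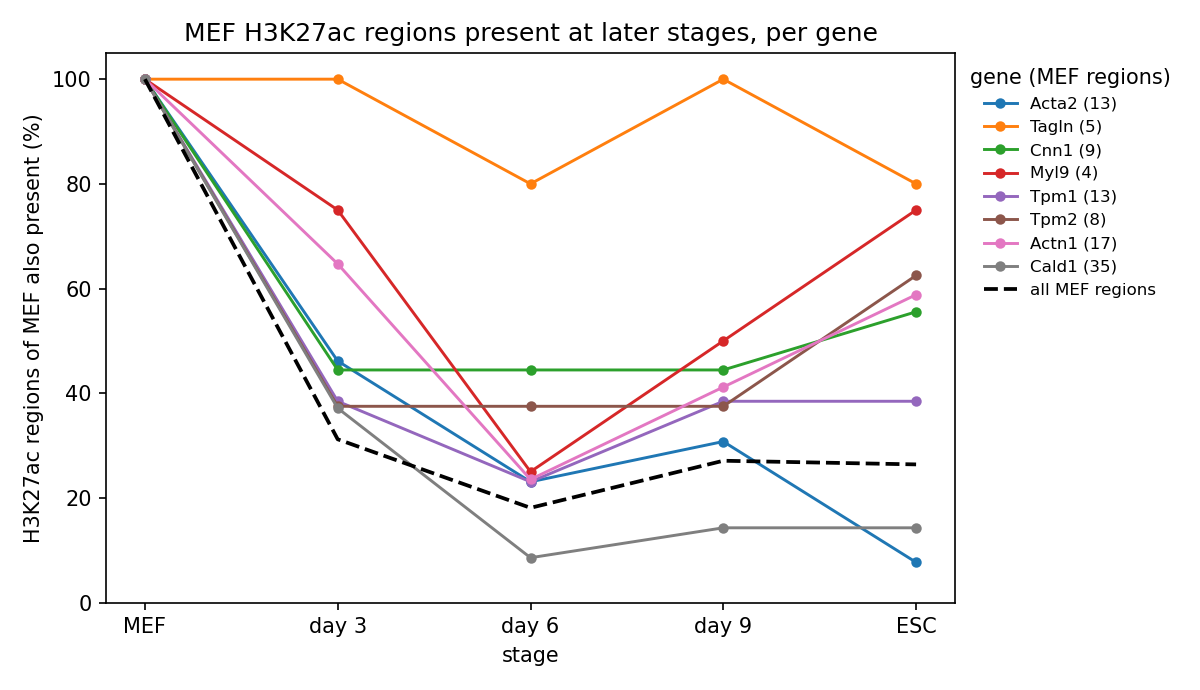
Share of each gene's MEF H3K27ac regions that were present at later stages, in percent (vertical axis) by stage (horizontal axis); 1 line per gene, with the number of MEF regions in the legend, and all MEF regions of the series as a broken line. In ESC Acta2 and Cald1 lie below the broken line, at 7.69% and 14.3%, and the other 6 above it.

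KLF4 regions lay over or next to the tropomyosin, actinin and caldesmon genes, while those around Acta2, Tagln, Cnn1 and Myl9 lay farther out. Of the 39 KLF4 regions, 10 lay inside a gene or within 2.5 kb of it: 4 at Actn1, 3 at Tpm1, 2 at Cald1, 1 at Tpm2, and 0 at Acta2, Tagln, Cnn1 and Myl9. The other 29 were farther out, and 21 of the 39 had a neighbouring gene within 2.5 kb. Within 2.5 kb of Cnn1 there was no KLF4 peak in any of the 10 libraries, and at Acta2 there was cover of 0.616 kb in the day 3 library EA-3702. Within 2.5 kb of Tagln there was 0.329 kb in the same library and 0.142 kb in the 2i library DG-3012, and within 2.5 kb of Myl9 there was 0.34 and 0.175 kb in the 2i libraries. A missing peak is not a missing signal, since read depth is not given in the sources used here.

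In the 50 kb window of Acta2, KLF4 peaks covered 2.87 and 1.83 kb at day 3, 1.21 and 1.24 kb at day 6, 0.791 and 1.29 kb at day 9, 0 and 0.915 kb in ESC, and 0.315 and 0.397 kb in ESC with 2i. Its KLF4 regions lie 35.1 kb before the start at Fas (chr19:34290075-34290831) and 59.2 to 63.2 kb after it at Stambpl1, and the one at Fas, the best ranked at day 3 (12.9%), was present at days 3, 6 and 9, in 1 of 2 ESC libraries and in 0 of 2 with 2i. The 0 belongs to the ESC library EA-2697, whose list covers 4.45 Mb, the least of the 10. The log2 difference of ESC from day 3 was -2.69 ± 0.89 (SE; limma, adjusted p = 0.0755), and it was -0.95 without that library and -4.43 without the other ESC library, EA-2643 (adjusted p = 0.204 and 0.016).

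Tagln and Tpm1 were the genes whose lower KLF4 cover in ESC than at day 3 passed the threshold. Acta2 (above) and Cald1 (-1.94; limma, adjusted p = 0.252) did not pass, and their size rests on the ESC library EA-2697: without it Cald1 stood at -0.37, and without EA-2643 at -3.51. For Tagln the cover was 3.56 and 1.54 kb at day 3, 1.94 and 1.4 kb at day 6, 1.03 and 0.957 kb at day 9, 0.345 and 0.734 kb in ESC and 0.899 and 1.09 kb with 2i. Its best-ranked day 3 region, chr9:45920045-45920864 at Pcsk7 (14%), was present at days 3, 6 and 9 and in 0 of the 4 ESC libraries. For Tpm1 the cover was 4.54 and 2.34 kb at day 3, 2.39 and 1.71 kb at day 6, 1.13 and 1.92 kb at day 9, 0.459 and 1.29 kb in ESC and 1.76 and 1.79 kb with 2i. Of its 7 KLF4 regions, 5 were transient, that is, present at day 3 and in no serum ESC library, among them the best ranked, chr9:67022875-67023450 at the far end of the gene (5.03%, mean fold 12.4), and the one over the start, chr9:67049190-67049554. The region 5.5 kb inside the gene, chr9:67043208-67044225, was in all 10 libraries. Per covered Mb, the log2 difference of ESC from day 3 was -1.30 ± 0.28 for Tagln and -1.20 ± 0.28 for Tpm1 (SE; limma, adjusted p = 0.0185 and 0.0239).

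These were 2 of 8 genes called lower in ESC than at day 3 against 5.29% of the 18861 genes tested, and 0 of 8 were called higher against 9.21%. Neither was called without the day 3 library EA-3702, the day 3 library DG-4040 or the ESC library EA-2697 (adjusted p of 0.0644 to 0.139), nor with peaks limited to a q-value of at most 0.01 (adjusted p of 0.373 and 0.235). Without the ESC library EA-2643, the log2 differences were -1.33 for Tagln, -1.42 for Tpm1 and -4.43 for Acta2. The median log2 difference was -0.53 over the 8 genes, all of which passed the filter, and 0.13 over all genes, and without the ESC library EA-2697 it was -0.11 and 0.20. At unadjusted p under 0.05, 5 of 8 passed in either direction, as did 5727 of all 18861 genes tested. The ESC libraries belong to batches EA-2697 and EA-2643 and those of day 3 to EA-3702 and DG-4040, so batch and stage cannot be told apart. The F test over the 5 groups called 1 gene, Tagln (adjusted p = 0.0337), against 18.7% of all genes, and its call was lost in 9 of 10 leave-one-out fits (adjusted p of 0.039 to 0.0854 over the 10).

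Actn1 had KLF4 at every stage. Its cover was 3.73 and 2.25 kb at day 3, 2.18 and 2.55 kb at day 6, 2.28 and 2.26 kb at day 9, 1.8 and 3.04 kb in ESC and 1.99 and 2.31 kb with 2i, with each group's range overlapping that of every other in kb. Per covered Mb both serum ESC libraries lay above the other 8, at 404 and 339 bp against 240 to 322 bp. The log2 difference of ESC from day 3 was 0.49 ± 0.20 (SE; limma, adjusted p = 0.139) and -0.26 without scaling. The region over its start, chr12:80260151-80260975, was in all 10 libraries and covers the promoter with the pair of GGGNGTG matches printed above. The best-ranked day 3 region, chr12:80223432-80223992 (15.7%), lies 36.7 kb inside the gene and was in 9 of 10. At the upstream start of Cald1 the region chr6:34598043-34599166 (17.4%) was present at days 3, 6 and 9, in 1 of 2 ESC libraries and in 0 of 2 with 2i, and at its downstream start chr6:34709262-34709545 was in 1 of 2 libraries at day 3 and at day 6, in both at day 9 and in none of ESC or 2i. The Cald1 window had 2.58 and 0.508 kb at day 3, 1.06 and 0.59 kb at day 6, 0.383 and 1.35 kb at day 9, 0 and 0.701 kb in ESC and 0.257 and 1.1 kb with 2i, a spread between replicates as wide as that between groups.

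For Tpm2 the cover was 2.45 and 1.8 kb at day 3, 2.19 and 1.81 kb at day 6, 1.41 and 1.79 kb at day 9, 0.942 and 1.87 kb in ESC and 2.06 and 2.36 kb with 2i. Its best-ranked KLF4 region, chr4:43561814-43562820 (4.96%), lies at Tln1 and Creb3 and was in all 10 libraries, whereas the one over its start, chr4:43523491-43523684, was in both ESC libraries, in 1 of 2 at day 3 and with 2i, and in none at days 6 and 9. Cnn1 and Myl9 had their widest KLF4 cover in ESC with 2i: 3.46 and 2.38 kb for Cnn1 and 1.26 and 1.71 kb for Myl9. The other 8 libraries ran from 1.15 to 2.07 kb for Cnn1 and from 0 to 0.891 kb for Myl9, so that for both genes the 2i libraries lay above all others, in kb and per covered Mb. The Cnn1 region of best rank at day 3, chr9:22050414-22050941 at Elavl3 (9.69%), was in all 10 libraries and overlapped no H3K27ac region present at any stage. Myl9 had no KLF4 region present at day 3. No test of 2i against serum was made.

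**Figure D5:**
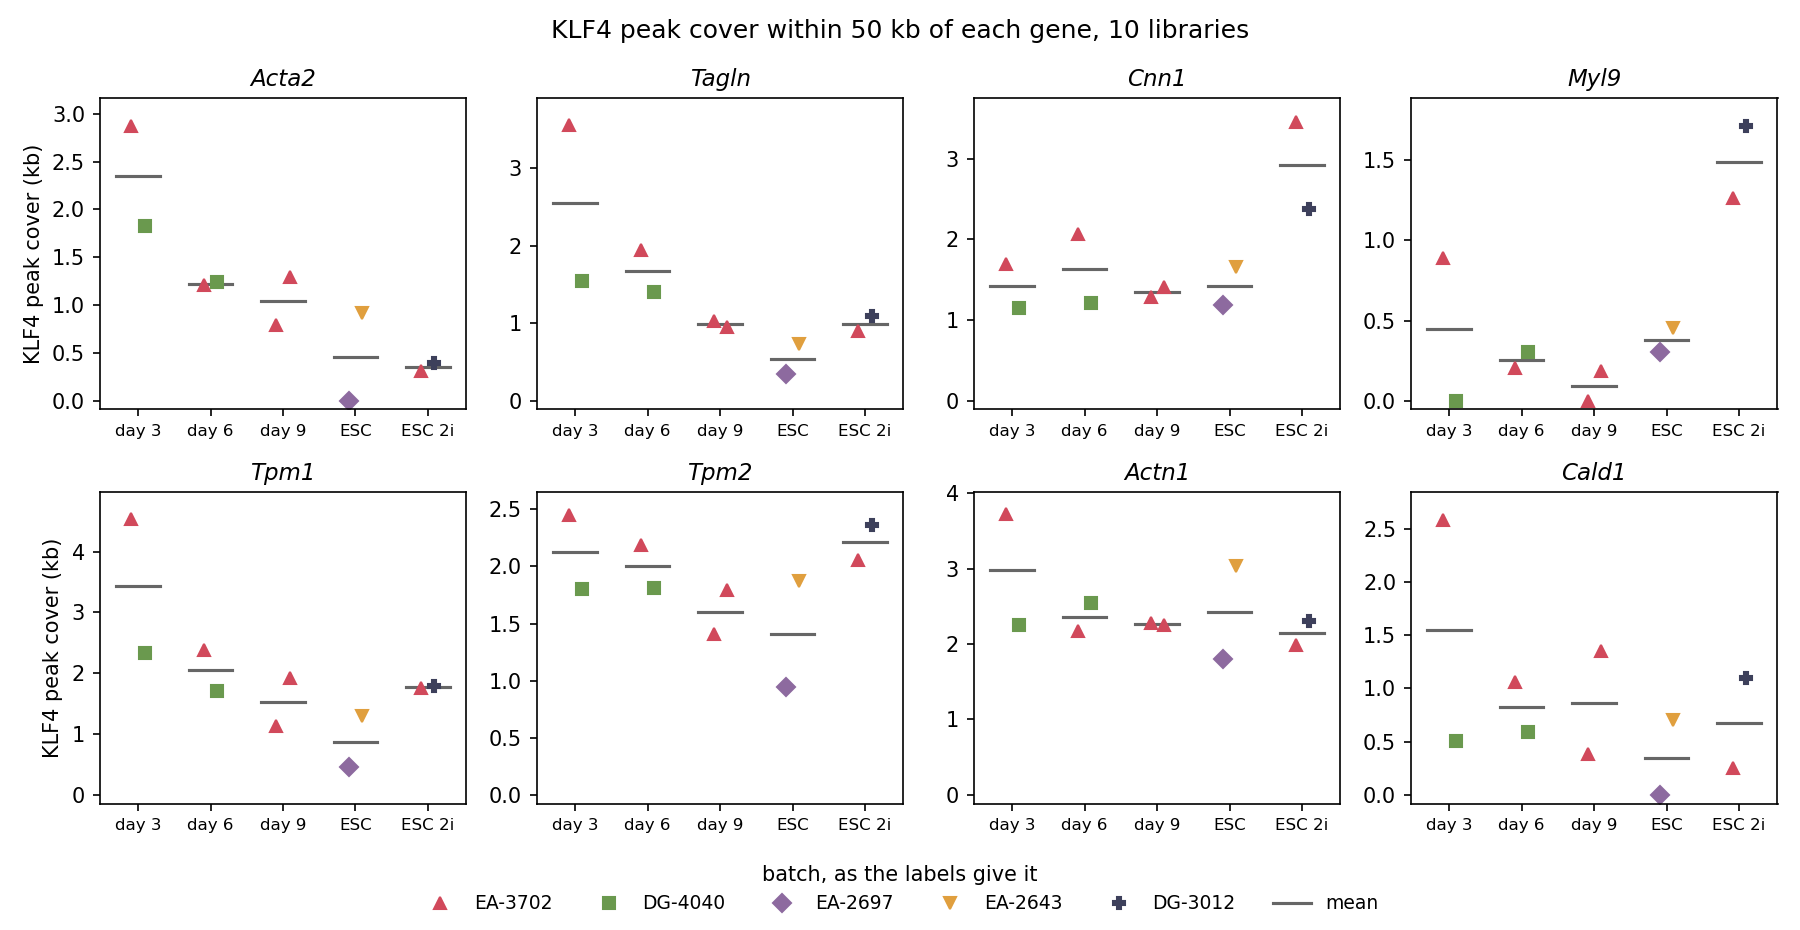
KLF4 peak cover in kb (vertical axis, starting at 0, own scale per gene) over each gene and within 50 kb, by group (horizontal axis). Each point is 1 library, its shape and colour the batch, and the line is the group mean; for Cnn1 and Myl9 both points of ESC with 2i lie above all others.

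By class, 8 of the 39 KLF4 regions were transient (20.5%; 21.6% of all KLF4 regions), 3 were late, absent at day 3 and present in ESC (7.69%; 17.5%), and 8 were kept at days 3, 6 and 9 and in serum ESC (20.5%; 16.9%). Leaving out 1 library moved these counts: transient regions numbered 13 and 19 without the day 3 library EA-3702 or DG-4040 and 15 without the ESC library EA-2643. Late ones numbered 6 without either day 3 library, 11 without the ESC library EA-2697 and 5 without EA-2643. Kept ones numbered 12 without EA-2697. Overlap with H3K27ac was counted against the merged regions present at a stage, which can reach beyond that stage's own peaks. The KLF4 region at the start of Tpm2 thus counts for day 3. No day 3 library had H3K27ac over the 300 bases at that start. Of the 39 regions, 33 overlapped H3K27ac of MEF (84.6%; 43.5% of all KLF4 regions), 32 that of day 3 (82.1%; 48.6%), 25 that of day 6 (64.1%; 36.2%), 30 that of day 9 (76.9%; 65.5%) and 29 that of ESC (74.4%; 55.9%). Most KLF4 regions around these genes thus overlapped an H3K27ac region of MEF, and most also overlapped one of each later stage. The shares were not tested. Among the 8 transient ones 7 overlapped H3K27ac of MEF (87.5%; 37.6% of all transient regions) and 4 that of ESC (50%; 21.6%).

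Other genes of the actomyosin and SRF pathway were given as a list of 26, of which 25 passed the H3K27ac filter. In ESC 13 were called lower than in MEF (limma, as above; 26.1% of all genes). Among them the log2 difference was -2.77 ± 0.34 (SE) for Zyx (zyxin), -2.11 ± 0.16 for Vcl (vinculin), -1.40 ± 0.11 for Mylk (myosin light chain kinase), and -3.49 ± 0.31 and -2.07 ± 0.30 for the coactivator genes Mrtfa and Mrtfb. The other tropomyosin genes, Tpm3 and Tpm4, were the 2 called higher, by 1.62 ± 0.19 and 1.09 ± 0.21, against 37.2% of all genes. At day 3, 7 were called lower and 6 higher per covered Mb (18.4% and 29.1% of all genes), against 20 lower and 0 higher without scaling (65.1% and 1.71% of all genes). The 6 included the cytoplasmic actin genes Actb and Actg1 (by 0.94 ± 0.12 and 0.50 ± 0.17). For KLF4, 1 of 26 was called lower in ESC than at day 3 (Fhl2, at -2.27 ± 0.64; 5.29% of all genes) and 1 higher (Lmod1, at 2.04 ± 0.51; 9.21% of all genes). The call of Fhl2 held, of the leave-one-out fits, only in those without either 2i library, and that of Lmod1 was lost without the day 3 library DG-4040, either day 9 library or either ESC library.

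The 8 genes did not follow 1 course. Over the 12 libraries, Pearson's r between a gene's log2 cover per covered Mb and the median of the other 7 was 0.841 for Tpm1, 0.728 for Acta2, 0.726 for Cald1, 0.573 for Tpm2, 0.355 for Tagln, 0.249 for Actn1, 0.159 for Myl9 and 0.122 for Cnn1. The libraries of a stage and the size of the lists are shared by all genes, so these are descriptions. Among 19725 genes outside the 8 windows, those most like the median of the 8 were Ergic1 (r = 0.976), Galnt2 (0.974), Tubd1 (0.972), Ddb1 (0.971) and C1qtnf7 (0.971).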

How the data were processed

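The 22 deposited peak lists, 1 per library and so called per sample, hold for each peak a score, a fold ratio of enrichment, a -log10 p-value and a -log10 q-value, all made by the authors' peak caller. The submitters' processing notes name cutadapt 1.8.1, Bowtie2 2.2.5, deepTools 2.3.6 and MACS2 2.1.1 and the build mm10, without settings. The 13 input libraries were not analysed here. Ratios and scores served only to describe and rank peaks within a list. Read depth is unknown, so no counting interval is given.

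For each coding gene and library, the length of peaks over the gene and within 50 kb was divided by the covered Mb of the list on chromosomes 1 to 19 and X. The test was limma 3.58.1 (R 4.3.3) with trend on log2(value + 10), over genes with a peak in at least 2 libraries of the mark, with Benjamini-Hochberg adjustment over all of them and a threshold of 0.05. The fold changes understate the change of low genes. Regions are merged peaks found in at least 2 libraries of a stage, present in a stage with at least 2 libraries and absent with 0; an overlap is 1 bp or more. All 8 genes are named, with the region over each known start and the best-ranked region in MEF (H3K27ac) or at day 3 (KLF4). No start site was available for Tagln. The method was tested on simulated data, with independent normal noise about each gene's mean and few genes changed. These lack the differing list sizes and the many changed genes of the libraries, so nothing is concluded from them. The genes and lists were chosen with earlier results of these data known. Alternatives were other windows (2.5 and 10 kb), pseudocounts, filters and scalings, peaks with a q-value of at most 0.01, equal numbers of top peaks, batch terms, the replicate number as a block, and each library left out.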

Additional observations from a re-analysis of the deposited data

How the results depend on the processing

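Read depth is not given in the sources used here, and a list's length moves with it, so an absent peak may be one that was not called. Of the 8 genes, 3 were called lower in ESC than in MEF with numbers of peaks in place of length (15.4% of all genes). Within 2.5 kb 4 were (23.1%). The number was 5 within 10 kb (24.3%), with a pseudocount of 100 (25.6%) or with a q-value of at most 0.01 (23.9%). Called higher in ESC were 0 to 2 (2 with numbers of peaks, against 32.8% of all genes). At day 3, 6 were called lower than in MEF with no scaling (65.1% of all genes) and 0 with numbers of peaks (11.6%). The number was 2 with equal top peaks (15%), a q-value of at most 0.01 (17.2%), a batch term (19.5%) or batch DG-3458 alone (21.5%). The replicate block, and the block with the day 6 numbers exchanged, also gave 2 (20.7% each). That exchange was chosen after seeing the data, since peak names inside the lists and sample titles number these libraries differently. Called higher were 0 with no scaling (1.71% of all genes), and 3 within 10 kb (25.7%) or with numbers of peaks (22.6%). Without the day 6 library DG-3458 replicate 2, 3 were called higher (31.4%). With a day 3 or day 6 library left out, 1 to 3 were called higher (25.9 to 32.5%). For KLF4 over the groups, 5 were called with a pseudocount of 100 (24.1% of all genes) and 2 with equal top peaks (17.5%). With no scaling (6.08%), numbers of peaks (9.8%) or the q-value limit (5.76%), 0 were called. Days 3, 6 and 9 alone with a batch term gave 0 calls among 17742 genes by limma. At unadjusted p under 0.05, 4531 of these genes, and 1 of the 8, passed there. For KLF4 lower in ESC than at day 3, 0 of the 6 genes tested in a 2.5 kb window were called (4.16% of all genes). With the q-value limit 0 were called (1.73%). In a 10 kb window 1 of the 7 genes tested was called (4.18%), and with numbers of peaks 1 (2.86%). Acta2 was added, making 3, with a pseudocount of 100 (6.47%), no scaling (5.3%) or equal top peaks (5.46%).

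Calls and regions also varied with each library left out. For H3K27ac without a day 3 or day 6 library, 7 to 8 genes were called over the stages (88.9 to 92.5% of all genes). Called lower in ESC were 5 to 6 (25.9 to 28.1%), and lower at day 3 there were 1 to 2 (16.2 to 20.4%). The 2 were called without the day 6 library EA-3702. KLF4 calls ranged from 0 to 1 over the groups (0 without the day 3 library DG-4040, the day 6 library EA-3702, either day 9 or either 2i library) and from 0 to 3 for lower in ESC. H3K27ac regions ranged from 29 to 46 for ESC-only, 61 to 110 for MEF-only and 38 to 41 for shared, and KLF4 regions from 8 to 12 for kept, 3 to 11 for late and 8 to 19 for transient, since 1 remaining library of a stage then sufficed for presence. MEF-only regions numbered 23 with equal top peaks and 28 within 2.5 kb, shared ones 14 and 16, and ESC-only ones 6 and 6, and 14 with the q-value limit. Kept KLF4 regions numbered 5 with equal top peaks, 3 with the q-value limit and 3 within 2.5 kb, late ones 5, 5 and 0, and transient ones 3 within 2.5 kb.

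The log2 difference of ESC from MEF changed sign with numbers of peaks for Cnn1 (0.31) and Tpm2 (0.11), in a 2.5 kb window for Myl9 (-0.08) and with no scaling for Actn1 (-0.10). That of day 3 from MEF changed sign with no scaling for Acta2 (-1.18), Tagln (-0.16), Myl9 (-0.74), Tpm1 (-1.06), Tpm2 (-1.17) and Actn1 (-1.37), with equal top peaks for Acta2 (-0.08), with numbers of peaks for Cnn1 (0.02) and Cald1 (0.03), and within 2.5 and 10 kb for Tpm2 (-0.56 and -0.82). For Actn1 it also did with the q-value limit (-0.17), in batch DG-3458 alone and with both replicate blocks (-0.02 each) and with libraries left out (-0.07 to 0.23). The KLF4 difference changed sign with no scaling for Tpm2 (-0.49) and Actn1 (-0.26), and for Tpm2 with the day 3 library EA-3702 left out (-0.06 to 0.36 over all). The cause of these changes was not tested. Same-numbered H3K27ac libraries of batch DG-3458, by the sample titles, did not deviate together (r of -0.007 to 0.033 between stages). This cannot tell whether libraries of the same number came from the same culture. With the replicate block 7 genes were called over the stages (88.9% of all genes), 6 lower in ESC (27.8%) and 2 lower at day 3 (20.7%).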
